A study of Mus musculus with 9 samples.

Results

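Cd4, Cd8a and Cd8b1 encode the coreceptors whose surface proteins define the cells of this study, CD4+ CD8+ (double-positive) thymocytes. These 3 of 21631 protein-coding genes were taken by name, and their chromatin contacts were collected from 10 tables of paired anchors. A contact (interaction) belonged to a gene when its anchor midpoints were at least 10 kb apart and either anchor touched the gene body or the 5 kb on either side of it. The tables held 482 distinct interactions of the 3 genes, of which 51 touched both Cd8a and Cd8b1 and were counted for each.

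The assay was HiChIP, in which DNA segments that lie close together in the nucleus are ligated, and fragments bound to a chosen protein or histone mark are then pulled down. Thymocytes of C57BL/6J (BL6) mice, of NOD/ShiLtJ (NOD) mice, a strain prone to autoimmune diabetes, and of (NOD/ShiLtJ X C57BL/6) F1 mice were sorted live with antibodies to CD4 and CD8a. The pulled-down target was Smc1, a subunit of the cohesin ring that holds chromatin loops, or H3K27ac, an acetylated histone found at enhancers and promoters in use. There were 2 Smc1 libraries each of BL6 and NOD, 1 Smc1 library of F1, and 2 H3K27ac libraries each of BL6 and NOD. No animal was given a treatment in the labels, which state no age. The labels describe the 2 Smc1 libraries of a strain as technical replicates of 1 biological replicate. The spread between them, which Smc1 p-values measure, is therefore technical. No spread between biological replicates was measured for Smc1. The 2 H3K27ac libraries of a strain were biological replicates. The sample titles of the 4 H3K27ac libraries name Smc1, against their antibody field and the names of their tables, and the antibody field was followed. Chromatin was cut with MboI.

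CD4 binds major histocompatibility complex (MHC) class II molecules and CD8 binds class I, and each brings the kinase Lck to the T cell receptor. CD8 on thymocytes is a dimer of an alpha chain, from Cd8a, and a beta chain, from Cd8b1. Double-positive cells make all 3 chains and later shut off either Cd4 or the Cd8 genes, through a silencer inside Cd4 and through a set of enhancers in and around the Cd8 locus.

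On the GRCm38 build, Cd8b1 lies at chr6:71322788-71337492 and Cd8a at chr6:71373427-71379171, with 35934 bp between them. Cd4 lies on the same chromosome at chr6:124864693-124888247, 53485521 bp away, beyond the reach of the deposited interactions. The promoter of Cd8a is shown with the anchors that reached it. The promoter table used here (RefSeq, GRCm38.p6) matched 1 of the 3 genes, and Cd4 and Cd8b1 were not matched in it. The 250 bases before the start of Cd8a, chr6:71373177-71373426 on the plus strand, have matches to the E-box and ETS letters in capitals.
Cd8a promoter: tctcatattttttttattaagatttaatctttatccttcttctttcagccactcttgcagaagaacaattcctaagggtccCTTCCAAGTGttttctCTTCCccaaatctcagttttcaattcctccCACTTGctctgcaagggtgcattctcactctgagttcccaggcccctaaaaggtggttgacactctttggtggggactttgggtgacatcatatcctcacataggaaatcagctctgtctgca
The E-box letters CANNTG occurred 2 times, beginning at positions -165 and -123 from the start, and the ETS letters GGAAG 2 times, at -169 and -153. The ETS match at -169 and the E-box match at -165 share 1 base. Searching both strands of 32851 promoters of the same 250 bases, 66.2% held the E-box letters and 64.1% the ETS letters. The RUNX letters TGTGGT (14.0% of promoters), the GATA letters AGATAA (9.99%), the CTCF core AGGNGGC (25.004%), TATAAA (12.4%) and the MboI site GATC (41.9%) had no match in this window. Anchors over it carried 12 read pairs in H3K27ac BL6 library 2, 4 in NOD library 1 and 21 in NOD library 2. No anchor over it was listed in H3K27ac BL6 library 1 or in any Smc1 table. A site in the body of Cd8a that Smc1 libraries listed begins just past this window, at chr6:71373598. How many other promoters were reached by H3K27ac anchors alone was not computed.

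The unit was the read pair, and no table listed an interaction of fewer than 2 read pairs or with a q-value over 0.05, so an interaction absent from a table was under that limit and not measured as 0. The sums per gene count it as 0. The Smc1 libraries of BL6 and NOD held 1484554 to 2620662 used read pairs, the F1 library 765188 when mapped to BL6 and 791859 when mapped to NOD, and the H3K27ac libraries 381010 to 1203808. Chromosome 6 carried 5.39% to 5.97% of them, except 7.20% in H3K27ac BL6 library 1 and 6.62% in H3K27ac NOD library 1. The names of the NOD tables say that reads were mapped to NOD and then shifted to BL6 coordinates, so strain and mapping genome cannot be told apart. All 3 genes had listed contacts in every table. Contacts are not expression and set no cell type. The 11 double-positive markers, these 3 genes among them, summed to 6.39 to 20.6 RPM (read pairs scaled to 1000000 used read pairs of the table) per 10 kb of window in Smc1 and 17.3 to 36.8 in H3K27ac, and 6 B cell markers to 14.4 to 17.4 and 17.3 to 29.1. The other lists ranged from 3.25 for erythroid to 24.9 for thymic epithelial markers. The erythroid list as a whole had 4.66 to 16.3 in Smc1 and 3.25 to 7.47 in H3K27ac. Its member Gata1, an erythroid regulator, had no listed contact in any of these 8 libraries.

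Cd8a, the alpha chain gene, had 90 and 211 read pairs in Smc1 BL6 libraries 1 and 2, 192 and 34 in Smc1 NOD libraries 1 and 2, 169 and 28 in H3K27ac BL6 libraries 1 and 2, and 37 and 39 in H3K27ac NOD libraries 1 and 2. The levels were 47.4 and 80.5, 115 and 22.9, 383 and 23.3, and 97.1 and 78.4 RPM. H3K27ac BL6 library 1 was the highest, its replicate was next to the lowest, and the antibodies overlapped.

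Cd8b1, the beta chain gene, had 169 and 189 read pairs in Smc1 BL6, 163 and 27 in Smc1 NOD, 192 and 74 in H3K27ac BL6, and 46 and 132 in H3K27ac NOD. The levels were 89.0 and 72.1, 98.0 and 18.2, 435 and 61.5, and 121 and 265 RPM. As for Cd8a, Smc1 NOD library 2 was the lowest and H3K27ac BL6 library 1 the highest.

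Cd4 had 52 and 27 read pairs in Smc1 BL6, 114 and 16 in Smc1 NOD, 158 and 137 in H3K27ac BL6, and 51 and 70 in H3K27ac NOD. The levels were 27.4 and 10.3, 68.5 and 10.8, 358 and 114, and 134 and 141 RPM. Every H3K27ac library was above every Smc1 library for this gene.

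**Figure D1:**
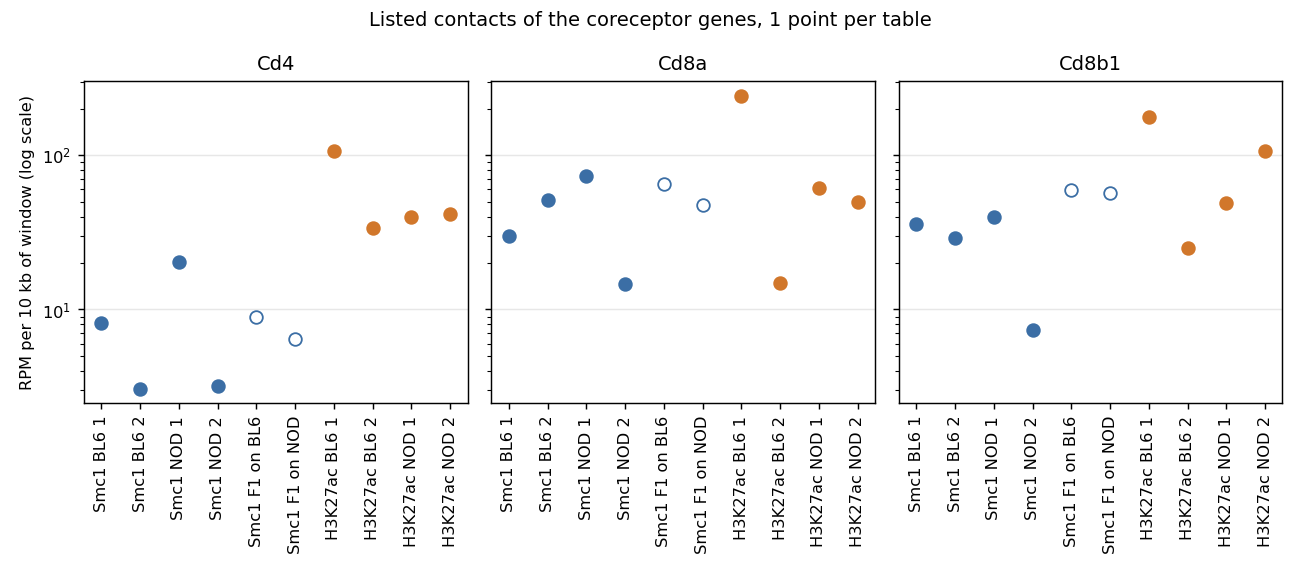
RPM per 10 kb of window (log axis) of each gene, with 1 point per deposited table; blue is Smc1, orange H3K27ac, and open points are the F1 library mapped to BL6 or to NOD. For Cd4 the 4 H3K27ac points all lie above the 4 filled Smc1 points, while for Cd8a and Cd8b1 the antibodies overlap.

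Because the windows differ in length (33.6 kb for Cd4, 15.7 kb for Cd8a, 24.7 kb for Cd8b1), levels were set beside each other per 10 kb of window. In Smc1 the mean over the 4 BL6 and NOD libraries was 42.3 ± 25.6 RPM per 10 kb for Cd8a, 28.1 ± 14.5 for Cd8b1 and 8.72 ± 8.16 for Cd4 (SD, n = 4 libraries, from 1 biological replicate per strain). The median of all genes was 9.61, and 99.7% of genes lay below Cd8a, 97.8% below Cd8b1 and 44.5% below Cd4. In H3K27ac the means were 92.4 ± 103 for Cd8a, 89.3 ± 67.5 for Cd8b1 and 55.6 ± 34.3 for Cd4 (SD, n = 4), against a median of 11.6. There 99.96%, 99.95% and 99.5% of genes lay below them. Neighbours in these orders differed by less than their SD, except Cd8b1 and Cd4 in Smc1, whose means lay 1 SD or more apart. By library, 20.5% to 86.9% of genes lay below Cd4 in Smc1 and 93.9% to 99.9% in H3K27ac. The Cd8 genes also varied by library. Below Cd8a lay 79.8% to 99.9% in Smc1 and 61.0% to 99.98% in H3K27ac. Below Cd8b1 lay 45.2% to 99.1% in Smc1 and 84.9% to 99.96% in H3K27ac. The low ends for both were Smc1 NOD library 2 and H3K27ac BL6 library 2. Without Smc1 NOD library 1 the Smc1 mean of Cd4 was 4.81, and without H3K27ac BL6 library 1 the H3K27ac mean of Cd8a was 42.1.

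In the F1 library, which has no replicate, Cd4 had 23 read pairs when mapped to BL6 and 17 when mapped to NOD (30.1 and 21.5 RPM), within the range of the BL6 and NOD Smc1 libraries. Cd8a had 79 and 59 (103 and 74.5 RPM), also within that range. Cd8b1 had 112 on each genome (146 and 141 RPM), above the 4 BL6 and NOD Smc1 libraries. The 2 tables come from the same library and are not replicates.

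Contacts of the Cd8 genes were mostly short in reach. Summed over the 8 BL6 and NOD libraries, 77.6% of the 800 read pairs of Cd8a and 78.5% of the 992 of Cd8b1 spanned less than 100 kb. The median share was 12.6% over the 16669 genes with at least 100 read pairs, and 0.0480% of them exceeded Cd8a and 0.0420% exceeded Cd8b1. Cd4 had 49.8% of 625 read pairs within 100 kb, a share exceeded by 1.19% of genes. By table, the share ran from 42.9% to 85.2% for Cd8a, from 58.1% to 93.8% for Cd8b1 and from 0% to 79.7% for Cd4, while 11.6% to 15.9% of all used read pairs spanned so little. The shares were the lowest for Cd8a and Cd8b1 in H3K27ac BL6 library 2, and for Cd4 in Smc1 BL6 library 2, whose 27 Cd4 read pairs all spanned at least 100 kb.

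Direction differed by gene. Of all Cd8a read pairs in the 8 libraries, 69.75% went to lower coordinates, where Cd8b1 lies. Of those of Cd8b1, 85.2% went to higher coordinates, where Cd8a lies. Cd4 sent 88.3% to higher coordinates, towards Lag3 and Mlf2, and 6.72% to lower ones. Of the 16669 genes, 2.70% were as one-sided as Cd4, 4.45% as Cd8b1 and 26.3% as Cd8a. In single tables Cd4 went to the higher side with 64.7% (H3K27ac NOD library 1) to 100% (Smc1 BL6 library 1) of its read pairs.

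**Figure D2:**
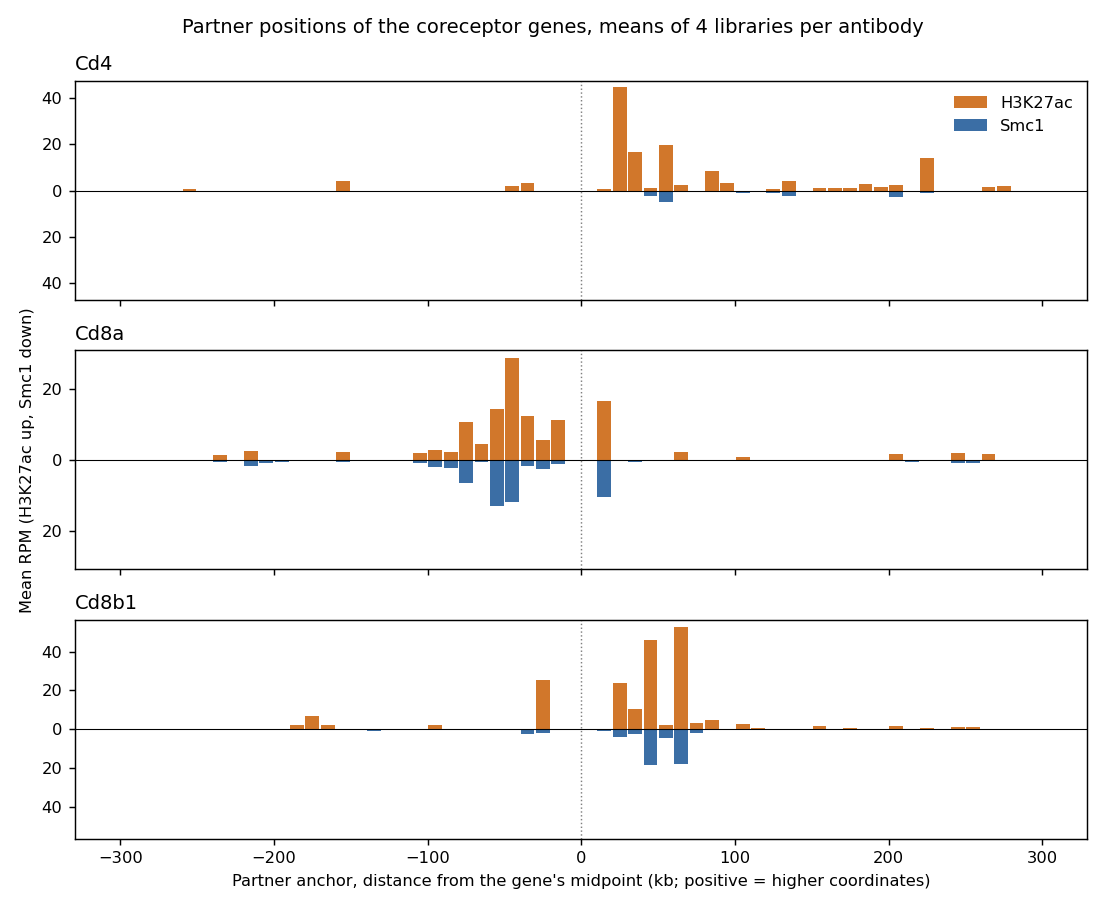
Mean RPM (H3K27ac upward, Smc1 downward; 4 BL6 and NOD libraries each) by distance of the partner anchor from the gene's midpoint in 10 kb steps. Cd8a partners lie mostly to the left and Cd8b1 partners mostly to the right, towards each other, and Cd4 partners lie to the right, with far higher bars for H3K27ac.

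Cd8a and Cd8b1 contacted each other in 8 of 9 libraries. Interactions joining the 2 windows held 43 and 61 read pairs in Smc1 BL6, 79 and 14 in Smc1 NOD, 58 in H3K27ac BL6 library 1, and 12 and 22 in H3K27ac NOD. None was listed in H3K27ac BL6 library 2. The F1 library had 40 when mapped to BL6 and 31 when mapped to NOD. Where listed, they made up 28.9% (95% exact Clopper-Pearson interval 22.9% to 35.5%, Smc1 BL6 library 2) to 56.4% (39.6% to 72.2%, H3K27ac NOD library 2) of the read pairs of Cd8a. These 2 shares are the lowest and the highest of those listed, so their intervals are not a test of a difference. The intervals cover counting error only and take read pairs as independent.

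Overlapping anchors of the 10 tables were chained into 260 sites of at most 6110 bp to follow the same contact across libraries. Of 221 pairs of sites at the Cd8 genes, 184 (83.3%) were listed in 1 library, 12 in 3 or more, and 2 in 7 of 9. The 2 that recurred most shared a site at the lower end of Cd8b1, chr6:71321207-71325073. From there one reached the body of Cd8a, chr6:71373598-71377934, 52.6 kb away between midpoints. It had 19 and 17 read pairs in Smc1 BL6, 22 and 10 in Smc1 NOD, 23 in F1 on the BL6 genome, 8 in H3K27ac BL6 library 1 and 5 in H3K27ac NOD library 1. The other reached a site inside Rmnd5a, chr6:71392481-71396698, 71.4 kb away. It had 19 and 26 read pairs in Smc1 BL6, 8 and 6 in Smc1 NOD, 25 in F1 on the BL6 genome, 23 in H3K27ac BL6 library 1 and 11 in H3K27ac NOD library 1. Rmnd5a, the gene next to Cd8a, encodes a subunit of a ubiquitin ligase. Neither pair was listed in H3K27ac BL6 library 2 or H3K27ac NOD library 2, and both were listed in all 5 Smc1 libraries.

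The Cd8a body site and the Rmnd5a site also contacted each other, 18.8 kb apart, in 6 of 9 libraries, with 10 and 40 read pairs in Smc1 BL6, 7 in Smc1 NOD library 1, 7 in F1 on the BL6 genome, 18 in H3K27ac BL6 library 1 and 10 in H3K27ac NOD library 1. Thus the lower end of Cd8b1, the body of Cd8a and the Rmnd5a site were joined in each of the 3 possible ways. A site in the upper part of Cd8b1, chr6:71332202-71336058, joined the Rmnd5a site in 6 libraries (7 to 20 read pairs where listed) and the Cd8a body in all 5 Smc1 libraries (4 to 15) but in no H3K27ac library. In H3K27ac that same Cd8b1 site joined a site at the start of Cd8a, chr6:71370752-71373439, with 14 read pairs in BL6 library 1 and 13 in NOD library 2, a pair that no Smc1 table listed. The chained site spans the promoter printed above, but the anchors of BL6 library 1 did not reach it. This start site also joined the lower end of Cd8b1, with 4 read pairs each in Smc1 NOD library 1, in F1 when mapped to NOD and in H3K27ac NOD library 1. A site in the gap between the genes, chr6:71350708-71354670, joined the Cd8a body in Smc1 BL6 library 2 (13 read pairs) and H3K27ac BL6 library 1 (10), and the lower end of Cd8b1 in H3K27ac NOD library 2 (16) and in F1 (6).

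**Figure D3:**
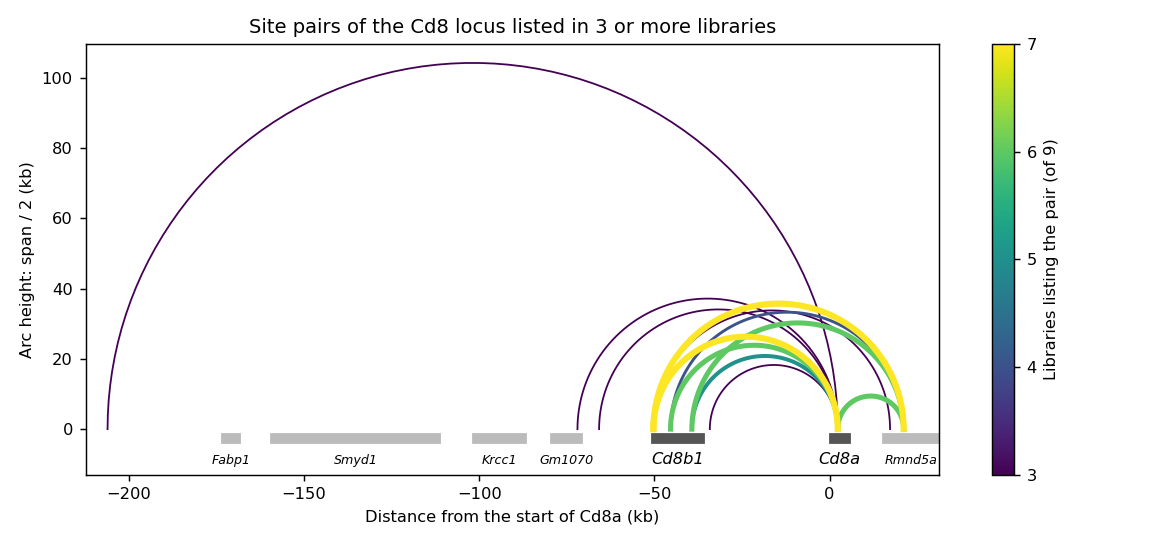
Pairs of sites at the Cd8 genes listed in 3 or more of 9 libraries, by distance from the start of Cd8a (kb); arcs scale with the span, colour and width give the number of libraries, and bars mark gene bodies (dark Cd8b1 and Cd8a, light neighbours). The most recurrent arcs join the lower end of Cd8b1, the body of Cd8a and a site in Rmnd5a, each pair of which was listed in 6 or 7 libraries.

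Over the 8 BL6 and NOD libraries, the gene within 250 kb that shared the most with Cd8b1 was Rmnd5a (a mean of 42.6 RPM), followed by Cd8a (38.8). By antibody, Cd8a led in Smc1 (25.7, against 20.7 for Rmnd5a) and Rmnd5a in H3K27ac (64.5, against 51.8 for Cd8a). Rmnd5a is a longer gene than Cd8a, and these values were not scaled for length. Rmnd5a was listed with Cd8b1 in 9 of 9 libraries, with 67 and 64 read pairs in Smc1 BL6, 32 and 6 in Smc1 NOD, 33 in F1 on the BL6 genome, 68 and 37 in H3K27ac BL6 and 11 and 22 in H3K27ac NOD. With Cd8a it shared 4 to 58 in 7 of 9 libraries. The predicted gene Gm1070, on the other side of Cd8b1, shared 4 to 30 read pairs with Cd8a where listed (7 libraries) and 5 to 32 with Cd8b1 (7 libraries). Krcc1 shared 3 to 14 with Cd8a in 6 libraries. Kdm3a, which encodes a histone demethylase, shared 3 to 8 with Cd8a in 5 libraries. Contacts with Smyd1, a muscle gene, were few, at 4 read pairs or fewer in any library with either gene.

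In bins of 25 kb, the partners of Cd8b1 concentrated in 2 bins that were listed in 9 of 9 libraries. The bin with the gap and the start of Cd8a, chr6:71350001-71375000, had a mean of 14.7 RPM in Smc1 and 76.0 in H3K27ac. The next, chr6:71375001-71400000, with the rest of Cd8a and the near end of Rmnd5a, had 32.1 and 59.4. The leading bins of Cd8a were chr6:71300001-71325000 (17.4 in Smc1, 29.7 in H3K27ac) and chr6:71325001-71350000 (13.8 and 41.4), which hold Cd8b1, each listed in 8 of 9 libraries. The bin chr6:71375001-71400000, which ranked next in Smc1 but after chr6:71350001-71375000 (17.0) in H3K27ac, had 10.5 and 16.8. Of 42 partner bins of Cd8a, 24 were listed in 1 library and 5 in 5 or more, and of 57 partner bins of Cd8b1, 33 and 5.

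Contacts of Cd4 recurred at fewer exact positions. Of 129 pairs of sites, 118 (91.5%) were listed in 1 library, 11 in 2 or more and 1 in 4. That pair joined the lower part of Cd4, chr6:124866153-124868574, with a site at Mlf2, chr6:124929725-124932745, over 63.9 kb. It had 6 read pairs in Smc1 BL6 library 1, 3 in Smc1 NOD library 2, 5 in H3K27ac BL6 library 1 and 4 in H3K27ac NOD library 1. The strongest Cd4 contact, in contrast, was listed in H3K27ac alone. It joined the upper end of Cd4, chr6:124883912-124889573, with a site between Cd4 and Lag3, chr6:124899050-124902459, 14.0 kb away, with 25 read pairs in BL6 library 1 and 31 in NOD library 2. An enhancer of Cd4 is known to lie on the Lag3 side of the gene, and whether this site is that enhancer was not tested.

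Lag3, which encodes an inhibitory receptor related to CD4, led the neighbours of Cd4 in H3K27ac (a mean of 61.8 RPM), while in Smc1 (3.34 RPM) it came after Mlf2 (4.79), Zfp384 (3.89) and Lpar5 (3.41). Cd4 and Lag3 shared 6 read pairs in Smc1 BL6 library 1, 17 in Smc1 NOD library 1, 68 and 37 in H3K27ac BL6 and 31 in H3K27ac NOD library 2, with none listed in the other 4 libraries. Mlf2, of the myeloid leukemia factor family, shared 12 in Smc1 BL6 library 1, 18 and 3 in Smc1 NOD, 32 and 6 in H3K27ac BL6 and 4 in H3K27ac NOD library 1. Ptms, the parathymosin gene, shared 16 to 42 where listed (3 libraries), Chd4, a chromatin remodeller, 2 to 14 (6 libraries), and Cops7a, a subunit of the COP9 signalosome, 6 to 16 (4 libraries). Windows of close neighbours overlap, so 1 interaction can count for several of them. The 5 kb below Lag3 also meet the site between Cd4 and Lag3 described above. The 31 read pairs of Lag3 in H3K27ac NOD library 2 are that same contact, and they count again in the bin with Lag3. The bin with Lag3 and Ptms, chr6:124900001-124925000, had a mean of 62.8 RPM in H3K27ac and 3.34 in Smc1. The next, chr6:124925001-124950000, at Mlf2, had 22.0 and 4.79. Cd4 had 43 partner bins, 22 listed in 1 library and 6 in 5 or more. No partner bin of Cd4 was listed in all 4 BL6 and NOD libraries of either antibody, whereas Cd8b1 had 2 in all 4 of each. Cd8a had 3 in all 4 of Smc1 but, like Cd4, 0 in all 4 of H3K27ac. Cd4 had fewer read pairs than either Cd8 gene in each of these Smc1 libraries, and recurrence was not adjusted for that.

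The parts of the gene that carried the contacts also varied. Shares here are of anchor ends inside the window, each weighted by its read pairs, so that an interaction within the window counts with both ends. In H3K27ac NOD library 2, 87.1% of the Cd4 ends lay in the upper part of its body, and 55.2% and 41.7% did in H3K27ac NOD library 1 and BL6 library 1. In the Smc1 libraries of BL6 and NOD this part carried 0% to 23.7%, all below the 3 values just given, while H3K27ac BL6 library 2 had 17.9%. In Smc1 NOD library 1, 54.4% lay in the 5 kb below Cd4. For Cd8a the lower part of the body and the 5 kb below it carried 67.6% to 94.1% in H3K27ac and 29.4% to 81.5% in the Smc1 libraries of BL6 and NOD, ranges that overlapped.

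The comparison of the antibodies asked whether contacts of a gene differed between H3K27ac and cohesin, over the 8 BL6 and NOD libraries with strain in the model. None of the 3 genes passed. This fit, like the interaction fit below, took technical Smc1 libraries as samples beside biological H3K27ac replicates, with a shared spread estimate. Its SE, intervals and p-values therefore do not measure the spread between biological replicates alone. Cd4 was 2.43 ± 0.67 higher in H3K27ac on the log2 scale (fit ± SE, 95% interval 0.95 to 3.90), with adjusted p = 0.0977 by edgeR's quasi-likelihood test with Benjamini-Hochberg adjustment over 17597 genes. Its 4 H3K27ac libraries all exceeded its 4 Smc1 libraries, as did those of 10.4% of genes. Cd8b1 differed by 1.37 ± 0.61 (0.02 to 2.71, adjusted p = 0.315) and Cd8a by 0.71 ± 0.75 (-0.96 to 2.37, adjusted p = 0.698) in the same test. Of all genes, 381 (2.17%) passed and 23 (0.131%) were higher in H3K27ac. Without the TMM scaling the median log2 difference of all genes was 0.26 and not -0.06. Cd4 passed with DESeq2 (adjusted p = 0.00532), with the replicate number as a block (2.15, adjusted p = 0.0120) and without Smc1 NOD library 1 (3.30, adjusted p = 0.0342), but with the technical Smc1 libraries summed its adjusted p was 0.540 and 0 genes passed. Without H3K27ac BL6 library 1, Cd8a was lower in H3K27ac (-0.58) and Cd8b1 differed by 0.69.

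Reads counted at the anchors, a column of the tables separate from the read pairs that join them, showed the same order for Cd4. Its highest anchor had 651 and 522 reads in Smc1 BL6, 432 and 377 in Smc1 NOD, 1411 and 1308 in H3K27ac BL6 and 883 and 3228 in H3K27ac NOD. Set against the median anchor of its own table, this was 0.957 to 1.73 times in Smc1 and 2.94 to 8.75 times in H3K27ac. In F1 it was 0.792 times on the BL6 genome. For Cd8a the ratio was 1.18 to 3.13 in Smc1 and 1.94 to 4.28 in H3K27ac. For Cd8b1 it was 1.11 to 3.23 and 2.55 to 5.20. Both pairs of ranges overlapped. By the median anchor in its window, Cd4 had 0.746 to 1.01 times in Smc1 and 1.02 to 2.65 times in H3K27ac. A highest anchor also depends on how many anchors a window holds. For Cd4 this was 3 to 7 in Smc1 and 5 to 9 in H3K27ac. These ratios were not tested, and how many other genes separate the antibodies in this way was not computed.

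**Figure D4:**
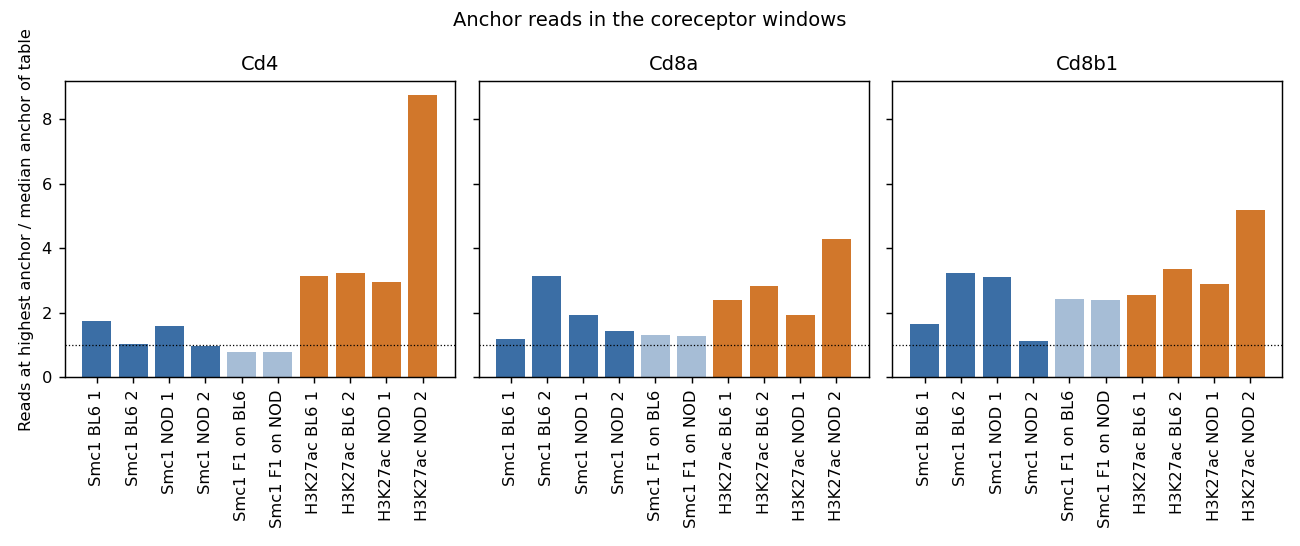
Reads at the highest anchor in each gene's window divided by the median anchor of the same table, 1 bar per table (blue Smc1, pale blue F1, orange H3K27ac; dotted line at 1). All 4 H3K27ac bars of Cd4 are above 2.9, and all its Smc1 bars are below 1.8.

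The comparison of strains asked whether contacts differed between NOD and BL6. In Smc1 none of the 3 genes passed, with 34 of 18053 genes (0.188%) passing. Each strain had 1 biological replicate there, so these fits do not separate strain from the spread between biological replicates. The log2 difference of NOD from BL6 was 1.09 ± 0.78 for Cd4 (fit ± SE, 95% interval -0.69 to 2.86), 0.10 ± 0.62 for Cd8a (-1.32 to 1.52) and -0.47 ± 0.59 for Cd8b1 (-1.83 to 0.89), each with an adjusted p of 0.999 by edgeR's quasi-likelihood test. The 2 NOD libraries lay far apart for all 3 genes, and library 2 was below both BL6 libraries for Cd8a and Cd8b1. Without Smc1 NOD library 1, Cd8b1 was lower in NOD by -2.01 (adjusted p = 0.00515, with 805 genes passing), and Cd4 and Cd8a turned to -0.65 and -1.37. Without Smc1 NOD library 2, Cd8b1 turned to 0.24. The direction for these genes therefore rested on which technical NOD library was used. Without Smc1 BL6 library 1, Cd8a turned to -0.25. The intervals allowed differences of more than 2-fold in either direction for Cd8a.

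In H3K27ac the differences were -0.81 ± 0.68 for Cd4 (95% interval -2.45 to 0.84), -1.22 ± 1.17 for Cd8a (-4.05 to 1.61) and -0.40 ± 0.94 for Cd8b1 (-2.66 to 1.87), with adjusted p of 1.00 each by edgeR. No gene of 13884 (0%) passed there, DESeq2 called 17, and 106 (0.763%) were under 0.05 before adjustment. All 3 directions rested on H3K27ac BL6 library 1. Without it the values were 0.24 for Cd4, 1.88 for Cd8a and 1.61 for Cd8b1. Without H3K27ac NOD library 1, Cd8b1 stood at 0.06. H3K27ac BL6 library 1 also had the highest share of read pairs on chromosome 6. With chromosome 6 read pairs as the library size the differences were -0.64 for Cd4, -0.99 for Cd8a and -0.12 for Cd8b1.

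The strain difference was not shown to differ between antibodies for any of the 3. The interaction was -1.85 ± 1.19 for Cd4 (95% interval -4.55 to 0.86), -1.27 ± 1.53 for Cd8a (-4.75 to 2.21) and 0.13 ± 1.29 for Cd8b1 (-2.80 to 3.05), with adjusted p of 1.00 in edgeR. It passed for 0 of 18100 genes (0%), with 335 (1.85%) at an unadjusted p under 0.05 and 0 by DESeq2. The sign for Cd8a turned without Smc1 NOD library 1 (0.16) or H3K27ac BL6 library 1 (1.80), and that for Cd8b1 without Smc1 NOD library 2 (-0.59), H3K27ac BL6 library 2 (-0.74) or H3K27ac NOD library 2 (-0.54).

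**Figure D5:**
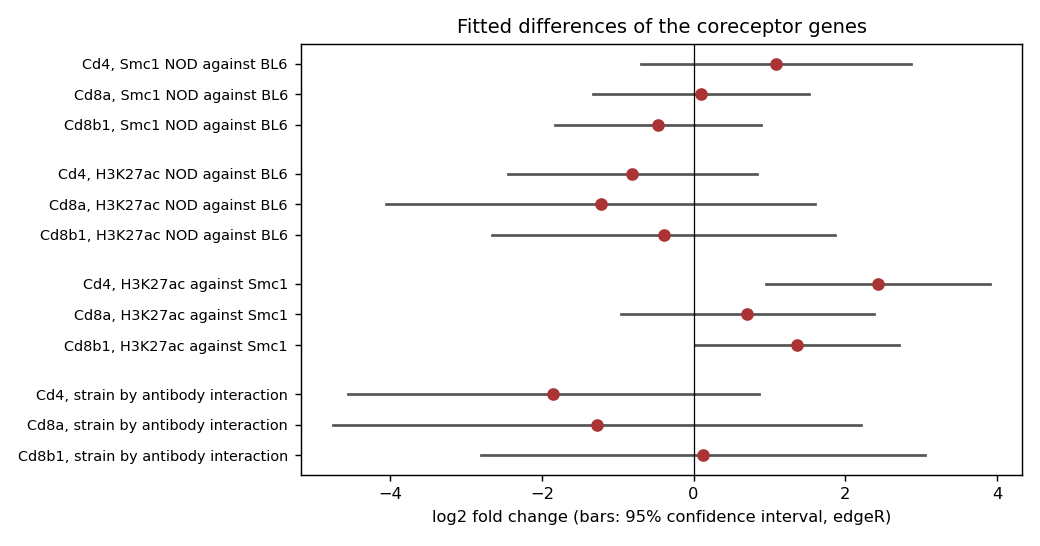
Fitted log2 differences (points) with 95% confidence intervals (bars) of the 3 genes in the 4 comparisons; positive means higher in NOD, higher in H3K27ac, or a larger NOD minus BL6 difference in H3K27ac. The interval of every strain comparison and interaction includes 0, and those of Cd4 and Cd8b1 in the antibody comparison do not. The antibody and interaction fits count technical Smc1 libraries as samples, and neither gene passed after adjustment.

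Partner positions were compared between strains over pairs of 25 kb bins. A bin pair counts every read pair between its bins, including contacts that do not touch the 3 genes. The pair of chr6:71275001-71300000 and chr6:71375001-71400000 held 37 in Smc1 BL6 library 1, where Cd8a had 11 with the first bin. In Smc1, 8 bin pairs that held a listed contact of these genes had enough read pairs to be tested. Of these, 3 had a positive and 5 a negative NOD difference, and the smallest p was 0.253 (adjusted p = 1.00, edgeR). Of all bin pairs, 0 of 5612 bin pairs (0%) passed, DESeq2 called 127, and 271 (4.83%) were under 0.05 before adjustment. In H3K27ac 8 were tested, 2 positive and 6 negative, with a smallest p of 0.150 (adjusted p = 1.00, edgeR), where 6 of 373 (1.61%) passed. The smallest p belonged to the pair joining the bins of Cd8b1 and of Cd8a with Rmnd5a (-1.91 ± 1.23). For the Cd8 genes most bin pairs tested ran between the Cd8b1 and Cd8a bins, and for Cd4 only 1 pair per antibody could be tested.

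The 23 genes reported here as regulators and signalling partners of the coreceptors gave a setting for these values. The list holds transcription factors such as Runx1, Runx3 and Zbtb7b, and Chd4, which is also a neighbour of Cd4. In the antibody comparison 17 were positive (46.8% of all genes were) and 6 negative with a median log2 difference of 0.47, against -0.06 over all genes tested. By edgeR 0 of these 23 passed, and 4 had an unadjusted p under 0.05, as had 15.5% of all genes. Between strains 0 passed with either antibody, with 2 under 0.05 before adjustment in Smc1 (3.61% of all genes were) and 0 in H3K27ac. There were 10 positive and 13 negative in Smc1 (median -0.05, 51.2% of all genes positive), and 9 and 14 in H3K27ac (median -0.18, 49.5% positive), and the interaction had 13 and 10 (46.9% positive).

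Among the 4 of this list with the highest level per 10 kb over the 8 libraries, Bcl11b, the T cell commitment factor, had means of 43.3 RPM per 10 kb in Smc1 and 85.3 in H3K27ac, beside 42.3 and 92.4 for Cd8a and 28.1 and 89.3 for Cd8b1. The means of Ets1, Runx1 and Tcf7, transcription factors of T cell development, stood above Cd4 in Smc1 and below it in H3K27ac. They were 15.7 ± 6.29 and 46.9 ± 21.1 for Ets1, and 25.02 ± 9.92 and 31.3 ± 28.6 for Runx1. Tcf7 had 9.96 ± 10.8 and 44.7 ± 46.3, and Cd4 8.72 ± 8.16 and 55.6 ± 34.3 (SD, n = 4 libraries). Only Runx1 in Smc1 differed from Cd4 by more than the SD of both genes.

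The genes with the most similar pattern over the 9 libraries (F1 on the BL6 genome, log2 of RPM plus 5, over 1 Mb away) were Slc5a5, Zfp526 and Sema4d for Cd4 (Pearson r = 0.984, 0.981 and 0.969 among 7393 genes). For Cd8a they were Kcnt1, Cog4 and 4930544D05Rik (0.919, 0.915 and 0.915 among 7395), and for Cd8b1 Ebf4, Tmbim1 and Src (0.971, 0.963 and 0.955). Cd8a and Cd8b1 correlated with each other at 0.835, Cd4 with Cd8b1 at 0.752 and Cd4 with Cd8a at 0.550. These points share libraries and depth, the Cd8 genes share interactions, and so many genes were searched that high values occur, so the correlations are a description.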

How the data were processed

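The members and gene lists were chosen with earlier results of these data known. The authors deposited, per the file headers, counts of read pairs per interaction and reads per anchor without normalization, with a p-value and q-value per interaction. The submitters' processing notes list the tools HiC-Pro, MACS and Juicer 1.7.6 without their roles, and GRCm38 as the build. Interactions on chromosomes 1 to 19 and X with midpoints at least 10 kb apart were summed per protein-coding gene (RefSeq, GRCm38.p6, no strand) over the gene body and 5 kb on either side, and per pair of 25 kb bins, with Python 3.11.15 and pandas 2.3.3. Levels were scaled to the used read pairs of each table. All genes were fitted with edgeR 4.0.16 in R 4.3.3 (TMM, default expression filter, robust quasi-likelihood), with a Benjamini-Hochberg threshold of 0.05, and DESeq2 1.42.0 was an alternative. The fits were also run on simulated counts, drawn independently for each library. Such counts model neither the technical replication of Smc1 nor the listing limit, so they do not check the fits on these points. Sites, anchors and promoters were described without tests. Named neighbours, bins, regulators and most similar genes followed rules by rank and threshold (up to 5 neighbours and bins, the 4 highest regulators and those passing, 3 similar genes), and Runx3, Zbtb7b, Smyd1, Zfp384, Lpar5 and Gata1 were chosen after their values were seen. A gene of the regulator and marker lists is not reported here, and counts over these lists leave it out.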

Additional observations from a re-analysis of the deposited data

Results flagged for a closer look

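Interactions with midpoints under 10 kb apart were left out of every comparison, and the tables held some at these genes. For Cd4 they summed to at most 55 read pairs in a table (H3K27ac BL6 library 1), with 16 and 9 in Smc1 BL6 libraries 1 and 2, 18 in F1 on either genome and 16 in H3K27ac NOD library 2. For Cd8a they were listed in F1 alone, with 18 when mapped to BL6 and 7 when mapped to NOD. For Cd8b1 they reached 22 in H3K27ac BL6 library 2, with 19 in H3K27ac NOD library 1 and 12 in F1 on the NOD genome.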

How the results depend on the processing

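Of 114 alternatives to the 12 fitted differences of the 3 genes, those that leave out a library apart, 106 kept their direction and side of the threshold, 2 made a call (Cd4 between antibodies, 2.45 with DESeq2 and 2.15 with the replicate block, adjusted p = 0.0120) and 6 reversed. Reversed were Cd8a in Smc1 between strains (-0.80 over the gene body alone, -0.14 with the replicate block), Cd8b1 in H3K27ac between strains (0.12 with the replicate block), and in the interaction Cd8a (0.19 over the gene body alone) and Cd8b1 (-0.25 at 20 kb or more, -0.0037 with technical Smc1 libraries summed, an alternative chosen after seeing the data). The replicate numbers tie no samples in the labels. The difference of library 1 from library 2 in BL6 was correlated across genes with that in NOD. This gave r = 0.256 in Smc1 (13312 genes) and 0.578 in H3K27ac (13653 genes).

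Leaving out 1 library at a time, differences ranged in Smc1 between strains from -0.65 to 1.91 for Cd4, from -1.37 to 0.79 for Cd8a and from -2.01 to 0.24 for Cd8b1. In H3K27ac they ranged from -1.40 to 0.24, from -2.14 to 1.88 and from -1.20 to 1.61. Between antibodies they ranged from 1.87 to 3.30, from -0.58 to 1.38 and from 0.69 to 1.88, and in the interaction from -2.66 to -0.14, from -2.26 to 1.80 and from -0.74 to 2.09.

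Calls over all genes in Smc1 moved from 34 to 13 with chromosome 6 as library size, 15 at 3 or more read pairs, 17 over the gene body alone or the gene ends, 58 with the replicate block, and 4 to 805 with a library left out (9 without BL6 library 1, 4 without BL6 library 2, 805 without NOD library 1). In H3K27ac they moved from 0 to 17 with DESeq2, 42 with the replicate block, and 0 to 26 (without NOD library 2). Between antibodies they moved from 381 to 1442 with DESeq2, 217 with chromosome 6 as library size, 118 at 3 or more read pairs, 0 at the gene ends, 0 with technical Smc1 libraries summed, 3290 with the replicate block, and 109 to 476 with a library left out (109 to 167 without any 1 of the Smc1 libraries, 240 and 206 without H3K27ac NOD libraries 1 and 2). The interaction had 0 throughout with a library left out. Bin pair calls moved in Smc1 from 0 to 127 (DESeq2), 3 (no filter), 13 (replicate block) and 0 to 54 (46 and 54 without BL6 libraries 1 and 2), and in H3K27ac from 6 to 0 (50 kb bins), 15 (DESeq2), 16 (replicate block) and 0 to 17 (0 without NOD library 1 or 2, 17 without BL6 library 2). The cause was not tested. The H3K27ac tables were the shallower ones, and the part of depth in their calls was not tested.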
